A study of Mus musculus with 62 samples.

Results

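The 7 genes described here are Mt1 and Mt2, which encode metallothioneins, Mtf1, the zinc-sensing transcription factor, Slc30a1, a zinc exporter, and Slc39a4, Slc39a6 and Slc39a10, which are zinc importers. They were taken by name from a table of 19112 gene rows, and all 7 had a row. They were described in 50 of 62 single-cell libraries, those in which spike-in RNA took less than 20% of the counts. The libraries were thus selected on a measured value, and the genes were selected with earlier results of these data known, so their levels below are descriptions without a test.

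All libraries came from 1 untreated adherent culture, at passage 9, of KPC1199-EGFP, a pancreatic cancer line of C57BL/6 mice that expresses EGFP. The culture was grown in serum-containing medium, the cells were detached with trypsin, and each was captured and amplified on a Fluidigm C1 chip. According to the design text, the cells serve as a control at the passage used for injection into mice. There was no second condition and no replicate culture, so the cells share 1 source, no groups were compared and no p-value was computed.

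Metallothioneins are small cysteine-rich proteins that bind zinc and copper and buffer the free ions in the cell. When zinc rises, MTF1 binds metal response elements in the promoters of metallothionein genes and of Slc30a1 and increases their transcription. Proteins of the SLC30 family move zinc out of the cytosol, into organelles or out of the cell, whereas those of the SLC39 family move it in.

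The start regions of Mt1 and Mt2 are shown because these genes carry the clearest shared pattern below and are known targets of MTF1. Sequences are from RefSeq (GRCm38.p6, plus strand, which is the strand of both genes), 5′ to 3′. Capitals mark matches to the core letters of the metal response element, TGCACNC or TGCGCNC, searched on both strands, and positions count from the RefSeq start as 1.
Mt1, chr8:94178839-94179088, upstream: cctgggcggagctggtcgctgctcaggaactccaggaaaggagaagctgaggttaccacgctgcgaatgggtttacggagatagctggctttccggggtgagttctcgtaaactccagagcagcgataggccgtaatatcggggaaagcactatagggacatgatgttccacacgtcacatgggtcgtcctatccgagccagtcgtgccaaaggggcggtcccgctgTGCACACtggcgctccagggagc
Mt1, chr8:94179091-94179115, from position 3: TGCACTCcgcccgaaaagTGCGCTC
Mt2, chr8:94172368-94172617, upstream: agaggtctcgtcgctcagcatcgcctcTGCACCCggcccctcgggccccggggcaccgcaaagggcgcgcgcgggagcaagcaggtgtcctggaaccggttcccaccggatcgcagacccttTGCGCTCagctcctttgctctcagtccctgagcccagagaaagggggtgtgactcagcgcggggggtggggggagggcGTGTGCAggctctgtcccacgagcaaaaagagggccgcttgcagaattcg

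The 300-base window of Mt1 (250 bases before the start and 50 from it on) held 3 matches, all on the gene's strand, at -23 to -17, 3 to 9 and 21 to 27. The window of Mt2 held 4 matches, at -223 to -217 and -128 to -122 on the gene's strand and at -50 to -44 and 5 to 11 on the opposite strand. Both genes lie on chromosome 8 with their starts 6471 bases apart. The window of Slc30a1 held 2 matches, those of Mtf1 and Slc39a10 held 0, and those of the related genes Mt3 and Mt4 held 1 each. Windows were found for 5 of the 7 genes, and the plot of match positions covers these with Mt3 and Mt4. Among all 32851 windows of this length, 25.7% held at least 1 match, 7.11% at least 2, 1.97% at least 3 and 0.518% at least 4. A match is a description of the letters, and binding was not measured. Positions and counts hold for these RefSeq starts and windows only. Matches outside the windows were not counted, so the genes are not ranked by all their elements.

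**Figure D1:**
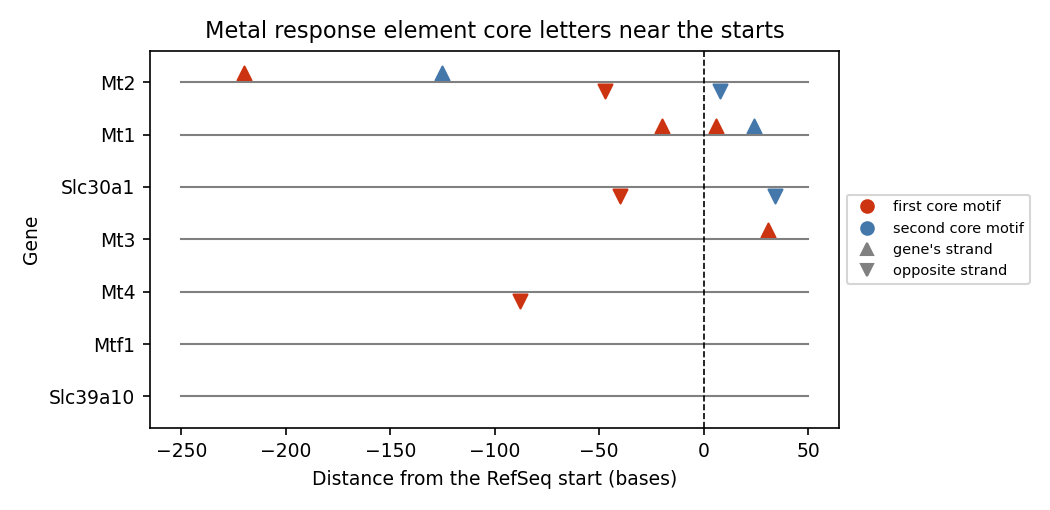
Positions of matches to the core letters of the metal response element, in bases from the RefSeq start, for 7 genes (rows). The first core motif is TGCACNC and the second TGCGCNC; upward triangles lie on the gene's strand and downward triangles on the opposite strand. The Mt2 window holds 4 matches and the Mt1 window 3, whereas the Mtf1 and Slc39a10 windows hold 0.

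In the 50 libraries, spike-in RNA took 0.19% to 1.83% of the counts, whereas in the other 12 it took 22.3% to 97.2%. Gene counts per library were 2153895 to 12868806 (median 7194657), and 6832 to 11068 genes were above 0. At these depths 3 counts correspond to 0.233 to 1.39 CPM, the gene's counts scaled by the library's gene counts, and intervals below cover the sampling of cells only. The epithelial markers Krt8, Krt18, Krt19, Cdh1 and Spp1 were above 0 in 50 of 50 libraries, and Epcam was above 0 in 18. All 4 endothelial markers were at 0, as were Cd3e, Lyz2 and Csf1r of 5 immune markers and Pdgfrb, Dcn and Lum of 6 fibroblast markers. The remaining immune markers were Ptprc, above 0 in 1 library, and Cd68, in 10. Of the remaining fibroblast markers, Col1a1 was above 0 in 41 libraries but reached 1 CPM in 1, Pdgfra was above 0 in 2 and Col3a1 in 1.

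Mt1 was found in every one of the 50 libraries, and Mt2 in 62% of them. Mt1 ranged from 16.5 CPM in library 31 to 2157 CPM in library 19, with a median of 159 CPM. Mt2 ranged from 0 to 169 CPM, also highest in library 19, with a median of 4.31 CPM, and was above 0 in 31 libraries (95% Clopper-Pearson interval 47.2% to 75.3%). On the log2(CPM + 1) scale the means were 7.43 ± 1.28 (SD, n = 50) for Mt1 and 2.48 ± 2.44 (SD, n = 50) for Mt2. Over all 62 libraries they were 6.50 ± 2.92 and 2.04 ± 2.39 (SD, n = 62). Mt1 was therefore present in all cells with levels spread widely, whereas Mt2 combined zeros with a broad range. Every value above 0 of Mt1 and of Mt2 was a whole number (within 1e-06), as a value made of undivided reads would be.

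**Figure D2:**
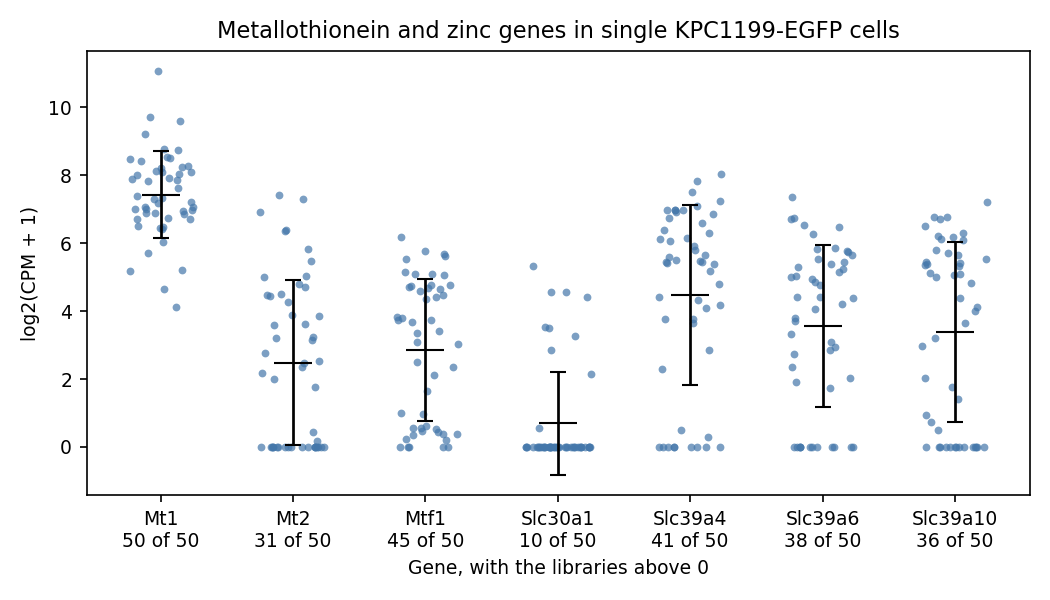
Level of each gene, log2(CPM + 1), in 50 single-cell libraries (points, spread sideways for visibility), with the mean and SD as black bars and the number of libraries above 0 under each name. Mt1 has no library at 0, whereas Slc30a1 is at 0 in all but 10.

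Where both were above 0, Mt1 exceeded Mt2 in 31 of 31 libraries. The median ratio was 12.96-fold, with a range of 3.15-fold to 841-fold. The highest ratio rests on a single Mt2 count in library 10. Per transcript length (549 bases for Mt1 and 511 for Mt2), the median ratio was 12.1-fold. The difference between the log2(CPM + 1) levels was 4.95 ± 1.86 (SD, n = 50).

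The levels of Mt1 and Mt2 went together over cells. Pearson's r between their log2(CPM + 1) levels was 0.661 and Spearman's rho 0.648 (n = 50). Without libraries 31 and 19, the farthest from the Mt1 median, r was 0.671, without libraries 16 and 19, the farthest from the Mt2 median, it was 0.583, and in the 31 libraries with both genes above 0 it was 0.698. Each was the gene most like the other among 9281 genes above 0 in at least 25 libraries. The next was Mif at 0.606 for Mt1 and Anp32a at 0.526 for Mt2.

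Single libraries show the pattern. The highest Mt1 values were 2157 CPM in library 19, 846 in library 16, 779 in library 17 and 600 in library 52, and Mt2 in the same libraries was 169, 158, 55.9 and 120 CPM. At the other end, Mt1 was 16.5 CPM in library 31, 24.3 in library 11, 35.3 in library 12, 35.99 in library 9 and 51.2 in library 18, and Mt2 was at 0 in 4 of these 5 and at 3.53 CPM in library 31. The order was not strict: library 58 had 426 CPM of Mt1, the sixth highest value, and 0 of Mt2. In the 19 libraries without Mt2, Mt1 was 24.3 to 426 CPM with a median of 116. Of the 10 libraries highest in Mt2, 6 were among the 10 highest in Mt1.

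**Figure D3:**
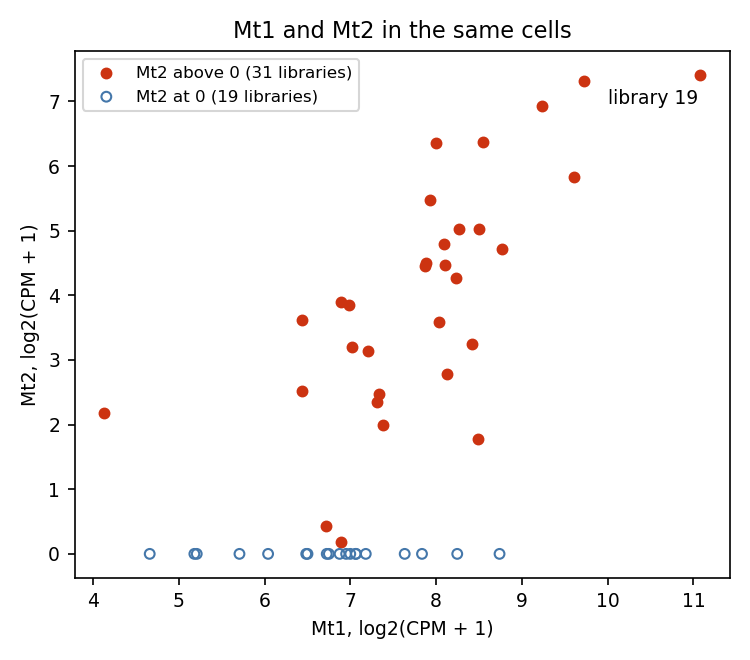
Mt2 against Mt1, both as log2(CPM + 1), in 50 single-cell libraries. Filled points are the 31 libraries with Mt2 above 0 and open points the 19 with Mt2 at 0; library 19 is highest in both genes, and Pearson's r over all points is 0.661.

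Mt1 moved with some library measures. Its r with the spike-in share was 0.355, with the number of detected genes -0.257 and with log2 gene counts 0.085 (n = 50). For Mt2 these were 0.135, -0.051 and -0.045. With the spike-in share regressed out of both genes, the r between Mt1 and Mt2 was 0.662. The sample numbers in the labels, from which 8 blocks of 12 numbers were made as a possible technical batch, gave block means of 6.54 to 8.26 for Mt1 and 1.07 to 3.80 for Mt2 on the log2 scale. With block means removed, r was 0.661. Within the 7 blocks that had at least 6 libraries it ran from -0.022 to 0.969 and was above 0.5 in 6, and in the block of 5 libraries it was -0.776, so single blocks did not all share the pattern.

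Mt1 was among the most variable genes for its level. The residual of its squared coefficient of variation over the trend with mean level ranked 18 of 12012 genes, at percentile 99.9, and Mt2 was at percentile 90.4. Library 19 carries much of the Mt1 rank, which was 358 of 11972 without it, at percentile 97.0. Mt3, a metallothionein known mainly from brain, was above 0 in 18 of 50 libraries at 0.89 ± 1.40 (SD, n = 50), and its r was -0.003 with Mt1 and 0.040 with Mt2. Mt4 had no row.

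Mtf1, which encodes the factor that senses zinc, was detected in most cells at low level and did not follow the metallothioneins. It was above 0 in 45 of 50 libraries (95% interval 78.2% to 96.7%) but reached 1 CPM in 33. Its values were 0 to 71.1 CPM with a median of 9.50 and a mean of 2.85 ± 2.09 (SD, n = 50) on the log2 scale. Library 19, the highest in Mt1 and Mt2, was also the highest in Mtf1. Over all 50 libraries, however, r was 0.048 with Mt1 (rho 0.009) and -0.012 with Mt2 (rho -0.005). Only 1 of 48 Mtf1 values above 0 in all 62 libraries was whole within 1e-06, so its counts were in part fractions of reads. Its spread lay at percentile 22.2 for its level.

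Slc30a1, the plasma membrane exporter that is a known MTF1 target, was found in 10 of 50 libraries (20%, 95% interval 10.0% to 33.7%). Its values above 0 were 0.485 to 39.6 CPM, highest in library 6, and the mean was 0.70 ± 1.53 (SD, n = 50) on the log2 scale. In those 10 libraries Mt1 was 116 to 359 CPM, within its range over all libraries, and the r with Mt1 was 0.014. The 5 libraries of highest Mt1 were all at 0 for Slc30a1, as were most of the 50 libraries.

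The 3 importers were each present in most cells, at levels that ranged from 0 to over 100 CPM. Slc39a4, the plasma membrane importer ZIP4, was above 0 in 41 of 50 libraries (82%, 95% interval 68.6% to 91.4%), with a median of 42.5 CPM and a highest value of 264 CPM in library 15. Slc39a6 (ZIP6) was above 0 in 38 (76%, 95% interval 61.8% to 86.9%), with a median of 18.8 and a highest value of 163 CPM in library 41. Slc39a10 (ZIP10), a close relative that can pair with ZIP6 at the cell surface, was above 0 in 36 (72%, 95% interval 57.5% to 83.8%), with a median of 18.2 and a highest value of 149 CPM in library 28. The 3 intervals overlap, but they come from the same cells, so their overlap does not compare the genes. Means on the log2 scale were 4.47 ± 2.65 for Slc39a4, 3.55 ± 2.38 for Slc39a6 and 3.39 ± 2.65 for Slc39a10 (SD, n = 50 each), so the genes differed by less than the spread over cells. All 3 were above 0 in 24 libraries, 2 of them in 17 and 1 in 9, so that no library lacked all importers of this set.

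Counted over the whole set, 6 of the 7 genes were detected in 50% or more of the cells. Of all gene rows, 48.6% met that mark, and the genes were not selected independently of it. The number of the 7 above 0 was 3 in 4 libraries, 4 in 11, 5 in 18, 6 in 14 and 7 in 3. Per kilobase of transcript, Mt1 stood highest at 8.29 ± 1.28 on the log2(CPM per kb + 1) scale, at percentile 98.1 of gene rows with a length. Slc39a4 followed at 3.38 ± 2.13, Mt2 at 3.02 ± 2.85, Slc39a6 at 2.24 ± 1.67 and Slc39a10 at 1.92 ± 1.66. Mtf1 was at 1.19 ± 1.06 and Slc30a1 at 0.34 ± 0.78 (SD, n = 50 each). Mt1 exceeded its neighbour by more than either SD, whereas the later steps in this order were smaller than the SDs of both genes beside them, except that from Mtf1 to Slc30a1, which exceeded the SD of Slc30a1 but not that of Mtf1.

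Outside the Mt1 and Mt2 pair, correlations over the 50 libraries were weaker. The other 20 pairs had r from -0.325 to 0.255 with a median of -0.025, and 18 of them lay within 0.2 of 0. The lowest was Mt1 with Slc39a6 (rho -0.281, -0.288 without the 2 farthest libraries and -0.317 within blocks). For this pair r was -0.129 in the 38 libraries with both genes above 0 and 0.057 over all 62 libraries. The highest was Slc39a6 with Slc39a10 (rho 0.283, 0.252 without the 2 farthest and 0.286 within blocks). Restricted to libraries with both genes of a pair above 0, which are fewer, the other pairs ran from -0.540 for Mt1 with Slc30a1 (n = 10) to 0.387 for Slc39a6 with Slc39a10 (n = 30), and Mt2 with Slc39a6 was 0.230 (n = 24) against -0.173 over all 50. All pairs share the culture, the chip and the depth of each library, and values this close to 0 in sparse counts describe these cells only.

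**Figure D4:**
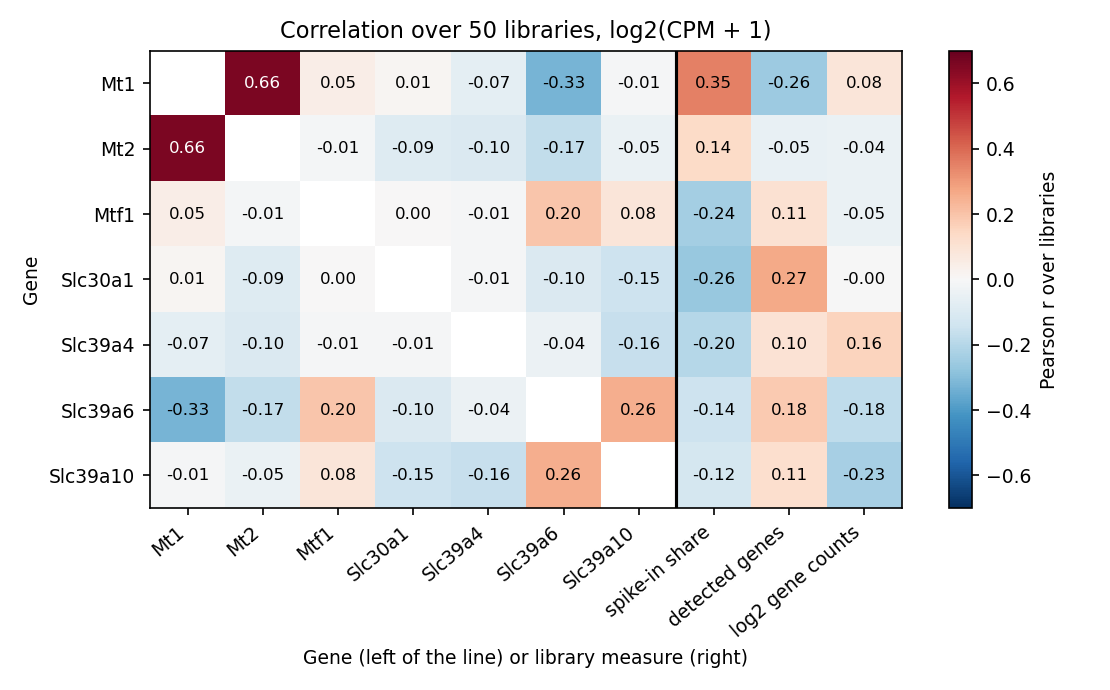
Pearson r over 50 libraries between the 7 genes (left of the line) and with 3 library measures (right), on log2(CPM + 1) levels. The Mt1 and Mt2 pair stands at 0.66, and every other gene pair lies between -0.33 and 0.26.

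The genes whose pattern over cells was most like each member were listed by r among genes above 0 in at least 25 libraries. For Mt1, after Mt2 and the cytokine gene Mif, they were Hcfc1r1 at 0.599, the ubiquitin-like modifier gene Ufm1 at 0.562 and the translation initiation factor gene Eif1 at 0.539. The lowest were Rbbp7, a histone-binding protein gene, at -0.624 and Mpp1, a membrane scaffold gene, at -0.620. Several of these also moved with the spike-in share: r was -0.521 for Rbbp7, -0.442 for Mpp1 and 0.439 for Eif1, against 0.355 for Mt1.

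For Mt2, after Mt1 and Anp32a, the most alike were Hif1an, which encodes a hydroxylase acting on HIF, at 0.514, the chromatin protein gene Hmga2 at 0.505 and the peroxiredoxin gene Prdx5 at 0.493. The lowest were Fmr1 at -0.541 and Evl at -0.535. With the spike-in share, r was -0.434 for Fmr1, -0.208 for Evl and -0.010 for Hif1an, against 0.135 for Mt2. 

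For Mtf1 the genes most alike were Urgcp at 0.548, Ndufaf5, Tmlhe, 1110065P20Rik and Brd7 at 0.454, and the lowest were S100a3 at -0.493 and Isoc1 at -0.480. Slc39a4 was most like Aaed1 at 0.534, Pilra, Cog6, Aprt and the chaperone gene Dnajc3 at 0.495, and least like Atp5j2, a subunit gene of ATP synthase, at -0.550 and Prtg at -0.505. The genes nearest to Slc39a6 were the kinase gene Dapk3 at 0.575, the autophagy gene Atg7, Bscl2, Mat2b and Fam20b at 0.523, and the farthest were Stk24 at -0.481 and Atn1 at -0.453. Slc39a10 was nearest to Unc119 at 0.514, the fumarase gene Fh1, the centromere gene Cenpn, Ipo11 and the NF-kB inhibitor gene Nfkbia at 0.478, and farthest from Ighmbp2 at -0.434 and Nap1l4 at -0.432. Highest values between 0.51 and 0.58 were thus reached for each of these 4 genes without another member among them. Some of these genes also moved with the spike-in share: r was -0.432 for Urgcp, -0.459 for Ndufaf5, -0.456 for Aaed1 and -0.513 for Cenpn. Others moved little with it, such as Pilra at -0.093 and Atg7 at -0.081. 

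The lists changed with the measure. By rank correlation, 2 of the 5 genes most like Mt1 stayed among its top 5, 4 of 5 for Mt2 and 0 of 5 for Slc39a10, so most of these names depend on the measure.

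Among all SLC30 exporters with a row, 5 of 9 (55.6%) met the same 50% mark, against 48.6% of all gene rows. Their median mean level was 4.17 on the log2 scale, against 1.13 over all gene rows. Slc30a9, a mitochondrial transporter, was above 0 in 47 libraries at 4.68 ± 1.83. Slc30a5 (45 libraries, 4.45 ± 2.08), Slc30a6 (41, 5.04 ± 2.57) and Slc30a7 (42, 4.90 ± 2.49), which load the secretory pathway, and the vesicular Slc30a4 (43, 4.17 ± 2.52) made up the rest (SD, n = 50). Slc30a2, Slc30a8 and Slc30a10 were at 0 in all 50, and Slc30a3 had no row. For 0 of 50 libraries, a limit of 3 libraries is 6% of cells, and the Clopper-Pearson upper bound is 7.11%. Slc30a1 thus had the fewest libraries of the 6 exporters that were found at all.

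Among SLC39 importers, 8 of 13 with a row (61.5%) met the 50% mark, against 48.6% of all gene rows. Their median mean level was 2.05, against 1.13 over all gene rows. Slc39a7, which releases zinc from the endoplasmic reticulum, and Slc39a1, at the plasma membrane, were above 0 in 50 of 50, at 5.91 ± 1.37 and 3.66 ± 1.15 (SD, n = 50). Slc39a1 was above 0 in all 62 libraries, and 0 of these 62 values were whole within 1e-06, so its counts were in part fractions of reads. Its mean over all 62 was 4.72 ± 2.55, and that of Slc39a7 5.56 ± 2.13 (SD, n = 62). Slc39a9 was above 0 in 31 libraries (24 at 1 CPM or more), Slc39a14 in 30 (18), Slc39a11 in 27 (24) and Slc39a13 in 23 (22). Slc39a8 was above 0 in 17 (7 at 1 CPM or more), and Slc39a3 in 16 (15). Only 1 of 30 Slc39a14 values above 0 was whole within 1e-06. Slc39a5 was above 0 in 8 libraries and reached 1 CPM in 0. Slc39a12 was at 0 in all 50 and Slc39a2 had no row. Slc39a4, Slc39a6 and Slc39a10 came next after Slc39a1 and Slc39a7 in this family by the number of libraries.

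**Figure D5:**
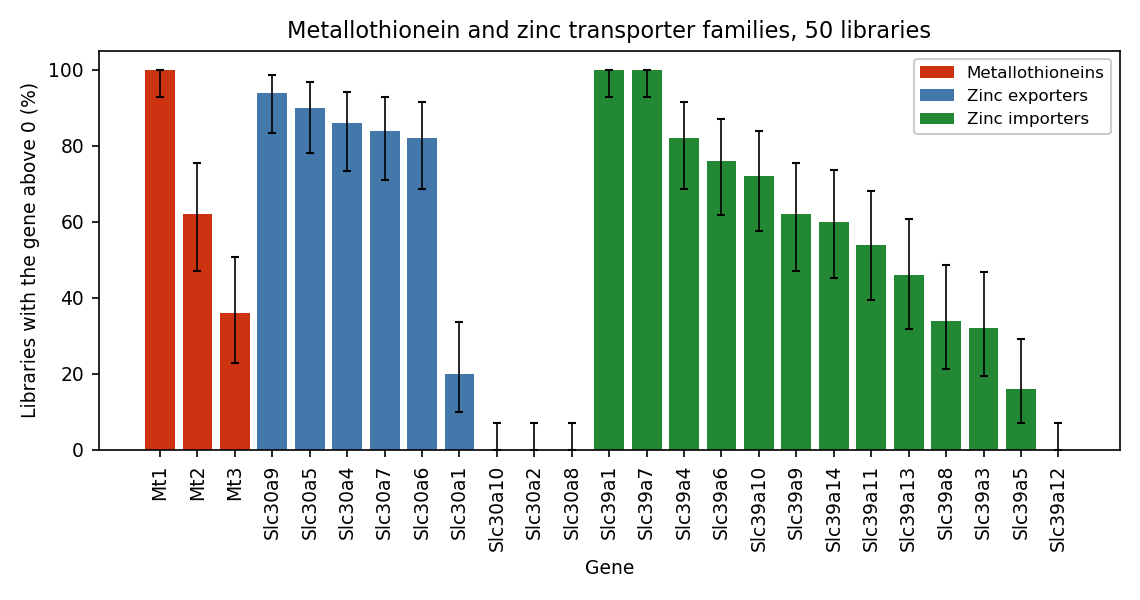
Percentage of 50 libraries with each gene above 0, for the metallothionein, zinc exporter and zinc importer families, with 95% Clopper-Pearson intervals as error bars. Mt1, Slc39a7 and, with fractional counts only, Slc39a1 reach 100%, and Slc30a2, Slc30a8, Slc30a10 and Slc39a12 are at 0.

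Both transporter families had a median r with Mt1 close to that of all genes, with single members on both sides of 0. Over members above 0 in at least 25 libraries, the median was -0.07 for 5 exporters (-0.22 to 0.13). For 8 importers it was -0.04 (-0.33 to 0.23), against -0.055 over all gene rows of that kind. With Mt2 the medians were 0.04 (-0.17 to 0.32) and -0.10 (-0.17 to 0.11), against -0.023. The highest of these with Mt2 was Slc30a9 at 0.319, where the 99th percentile of all such genes was 0.334.

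Of 9 copper-handling genes, 8 met the 50% mark, against 48.6% of all gene rows. Their median r with Mt1 was 0.05, against -0.055 over all genes above 0 in at least 25 libraries. The copper chaperone gene Atox1 (7.49 ± 0.54) and Commd1 (7.53 ± 0.51) had the highest means, and the copper transporter genes Atp7a (2.19 ± 2.23) and Slc31a1 (5.91 ± 2.08) the widest spread (log2 scale, SD, n = 50). Mt1 at 7.43 ± 1.28 thus varied more over cells than Atox1 and Commd1 did.

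All 9 genes of the metal and oxidant response met the mark, against 48.6% of all gene rows. Their median r with Mt1 was -0.08, against -0.055 over all genes above 0 in at least 25 libraries. Gclm (7.01 ± 1.12), a glutathione synthesis gene, and Txnrd1 (5.78 ± 1.65), encoding thioredoxin reductase, had the highest means, and Nqo1 (3.17 ± 2.91) and Srxn1 (4.53 ± 2.48) the largest SDs. Of 9 glucocorticoid-response genes, read because glucocorticoids are known to induce metallothioneins, 7 met the mark, against 48.6% of all gene rows. Errfi1 (6.70 ± 1.61) and Dusp1 (6.20 ± 3.11) had the highest means, and Sgk1 (3.91 ± 3.22) and Dusp1 the largest SDs. Their median r with Mt1 was -0.17 over 7 genes, from -0.35 for Dusp1 to -0.07. The metal and oxidant genes ran from -0.30 to 0.01. Any effect of glucocorticoids on Mt1 was not tested. Over all genes above 0 in at least 25 libraries, the median was -0.055 and the 1st percentile -0.42. With Mt2 the median of the 7 was -0.12, against -0.023, and the highest value was 0.05 for Sgk1.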

How the data were processed

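The authors deposited estimated counts for each gene, which according to the submitters' processing notes come from kallisto and mm9. Its version and the annotation were not given in the sources used. Of 19177 rows, 65 were spike-in rows and left out of library sizes. Gene symbols altered by table software were restored for 1000 rows, and 507 rows matched no reference symbol.

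Each library's estimated counts were divided by its total over gene rows to give CPM and taken as log2(CPM + 1), unrounded except for thinning. Gene counts per library were 2153895 to 12868806. Variability was how far a gene's log2 squared coefficient of variation lay from a lowess curve (fraction 0.3) on mean level, among genes above 0 in at least 10 libraries. Transcript lengths, from GENCODE M21 for 96.4% of gene rows, and RefSeq windows are of another build (GRCm38), so no gene coordinates of the deposited table are given. Correlations are over cells, with no p. Scripts were tested on simulated data. Python 3.11.15, numpy 2.4.6, scipy 1.17.1, statsmodels 0.14.6, R 4.3.3 and edgeR 4.0.16 (TMM factors only) were used.

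Named are the 7 members, every gene of the metallothionein, exporter and importer lists, the 2 of highest mean and 2 of largest SD of each other list, and, for each member above 0 in at least 25 libraries, the 5 genes of highest and 2 of lowest r. Members and lists were chosen with earlier results of these data known. No doublet caller was run. Alternatives were TMM or spike-in scaling, another pseudocount, other detection marks, thinning, other sets of libraries and rank correlation. Protein sequences and identity were not analysed here.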

Additional observations from a re-analysis of the deposited data

Results flagged for a closer look

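The 12 libraries in which spike-in RNA reached at least 20% were set aside above, and 6 of the 7 genes exceeded 3 counts, the limit that a count of 0 allows, in some of them. Mt1 did so in 3 libraries, with up to 1277 counts in library 34, and Mtf1 in 2. Slc39a4 did so in 3, with up to 187 counts, and Slc39a6 in 2, with up to 212 counts, both highest in library 56. Slc30a1, with 4 counts, and Slc39a10, with 29, each did so in 1 library. Mt2 did so in 0 of the 12, with at most 2 counts. Mt1 was above 0 in 4 of the 12. Its level was 2590 CPM in library 34 and 2349 CPM in library 23, above the 2157 CPM of library 19. In both libraries Mt2 was at 0. Gene counts were only 492995 in library 34 and 457288 in library 23.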

How the results depend on the processing

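Mean levels of the 7 genes moved by less than 1 SD over cells under TMM factors, spike-in scaling, a pseudocount of 0.1, all 62 libraries, a spike-in share under 1% (40 libraries) and library sizes without Rn45s and the highest gene, except Slc30a1, whose mean was -2.01 on the log2 scale with a pseudocount of 0.1, since that gene is at 0 in most libraries. Numbers of libraries stayed within 1.5 times under at least 1 CPM, at least 10 counts, thinning to 2000000 counts and all 62 libraries. The r of Mt1 and Mt2 was 0.507 over all 62 libraries, 0.607 with a pseudocount of 0.1, 0.620 without library 19 and 0.671 with detected genes regressed out. Over all 62 libraries 12 of the 21 pairs had the opposite sign from that over 50, and 5 lay outside the 95% Fisher interval, Mt1 with Slc39a10 (0.379) highest among the other pairs. With both genes of a pair above 0, 7 of 21 changed sign and 3 lay outside that interval. The cause was not tested. Mt2 ranked 1 for Mt1, and Mt1 for Mt2, also by Spearman and among genes above 0 in at least 10 libraries. The log2 difference of Mt1 and Mt2 was 4.13 without a pseudocount where both were above 0. Leaving out library 19, requiring both genes above 0 and regressing out the spike-in share were chosen after seeing the data. No paired analysis was possible because all libraries belong to 1 group. With 1 culture, values over cells say nothing of the spread between cultures, and a gene at 0 may be below detection.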
